A study of Rattus norvegicus with 6 samples.

Results

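Unannotated transcripts that cover a protein-coding gene were examined in RNA-seq libraries of rat neonatal cardiomyocytes, where the assembled transcript and the annotated gene below it are counted as separate features. A transcript was included when it had no entry in the gene annotation, held at least 60 counts over the 6 libraries, covered at least 50% of exactly 1 annotated protein-coding gene on its own chromosome and strand, and overlapped no other annotated gene on that strand. The members were thus chosen by annotation, position and total counts over both groups together, and not on the difference between the groups. Of 43035 features in the count table, 3038 met this rule, and they covered 3034 distinct genes. The table held 10152 unannotated transcripts in all, of which 1265 had no strand listed. Of the others, 1725 overlapped no annotated gene on their strand, 1113 overlapped more than 1, and 6049 overlapped exactly 1. That gene was protein-coding for 5862 transcripts and at least 50% covered for 5398, and 2360 of these fell below 60 counts, including 1052 without a count in any library. Each transcript is named below by the gene it covers.

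The cells came from hearts of Sprague-Dawley rats at postnatal day 1 and were grown in medium with fetal bovine serum. Both groups, of 3 libraries each, were transfected with siRNA and collected 48 h later. The si-NC group received scramble siRNA, and the si-DYRK1A group received siRNA directed at DYRK1A, a serine/threonine kinase that restrains cell cycle entry. The question was what differs in the RNA between cells given these siRNAs. The cultures were enriched by differential attachment and not sorted, so fewer cells of a type and less RNA per cell cannot be told apart in these bulk samples. The labels call the replicates biological but do not say whether they came from separate isolations, so p-values measure the spread between these libraries.

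An assembler joins overlapping reads into a transcript and compares it with the annotation, and a transcript whose exons are not all in the annotation can receive an identifier of its own. Untranslated ends, first exons and splice forms are often less complete in an annotation than coding exons. Reads of a well-known mRNA can then be counted under an identifier that carries no gene symbol. Among the genes covered here were ligands of the TGF-beta family, growth factor receptors, matrix proteins, Z-disc proteins of the sarcomere, ion channel subunits, immediate early genes and mitotic genes.

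Promoter sequences of 5 covered genes are printed. Of the replication, mitotic and cyclin-pathway genes whose transcripts were called higher, Mki67, Nuf2, Anln and Mad2l1 are shown because their windows hold the letters TTTGAA, which that of Topbp1, for one, does not. Inhba is shown because its transcript had the smallest p-value of all 3019 transcripts tested. Each window runs 5′ to 3′ from 250 bases before to 50 bases after the RefSeq gene start in build GRCr8. Capitals in the first 4 mark TTTGAA or its reverse complement, the core of the cell cycle genes homology region. In the Inhba window they mark CCAAT and TATAAA, the letters of the CCAAT box and the TATA box. Whether the unannotated transcripts start at these RefSeq starts was not examined.
Mki67, chr1:199952544-199952843, minus strand: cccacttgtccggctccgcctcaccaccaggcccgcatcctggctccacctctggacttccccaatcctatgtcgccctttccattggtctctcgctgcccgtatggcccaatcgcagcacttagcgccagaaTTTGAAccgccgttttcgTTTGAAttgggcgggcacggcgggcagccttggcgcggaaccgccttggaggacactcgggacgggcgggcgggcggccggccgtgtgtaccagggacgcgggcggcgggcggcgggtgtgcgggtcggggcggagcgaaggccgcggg
Nuf2, chr13:84255549-84255848, minus strand: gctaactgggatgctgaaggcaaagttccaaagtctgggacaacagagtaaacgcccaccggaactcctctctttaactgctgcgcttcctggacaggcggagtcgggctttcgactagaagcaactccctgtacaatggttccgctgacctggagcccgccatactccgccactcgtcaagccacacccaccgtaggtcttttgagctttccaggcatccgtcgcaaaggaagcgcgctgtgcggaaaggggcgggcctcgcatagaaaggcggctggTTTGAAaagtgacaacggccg
Anln, chr8:29197464-29197763, minus strand: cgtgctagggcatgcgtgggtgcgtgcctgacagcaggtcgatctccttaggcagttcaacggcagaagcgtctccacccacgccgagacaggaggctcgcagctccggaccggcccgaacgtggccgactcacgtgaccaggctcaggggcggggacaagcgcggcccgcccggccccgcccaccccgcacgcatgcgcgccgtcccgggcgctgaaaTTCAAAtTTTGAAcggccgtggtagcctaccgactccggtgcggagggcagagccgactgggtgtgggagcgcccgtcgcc
Mad2l1, chr4:97236259-97236558, plus strand: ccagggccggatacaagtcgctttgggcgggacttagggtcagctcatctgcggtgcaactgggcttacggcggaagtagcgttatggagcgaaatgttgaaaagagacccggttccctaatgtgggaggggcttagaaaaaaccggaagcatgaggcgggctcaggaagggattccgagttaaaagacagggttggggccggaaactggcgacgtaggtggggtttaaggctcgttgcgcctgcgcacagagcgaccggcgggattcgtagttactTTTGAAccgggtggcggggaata
Inhba, chr17:53804459-53804758, minus strand: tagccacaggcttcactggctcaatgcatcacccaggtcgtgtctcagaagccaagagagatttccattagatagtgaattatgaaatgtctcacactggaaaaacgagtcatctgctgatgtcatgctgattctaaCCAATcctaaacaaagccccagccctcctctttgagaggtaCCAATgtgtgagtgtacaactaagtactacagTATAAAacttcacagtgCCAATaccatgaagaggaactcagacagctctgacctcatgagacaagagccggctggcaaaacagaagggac

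TTTGAA stood at bases 134 to 139 and 152 to 157 of the Mki67 window, at bases 280 to 285 of the Nuf2 window and at bases 278 to 283 of the Mad2l1 window. The Anln window held it at bases 227 to 232 and, on the other strand, at bases 220 to 225. In the Inhba window CCAAT began at bases 138, 179 and 228, and TATAAA began at base 211. The matches in capitals do not overlap each other, and CCAAT matches in the Mki67 window are left in lower case. A promoter was matched by symbol or synonym for 2403 of the 3038 transcripts, of which 2383 were tested. On either strand, TTTGAA was present in 18.8% of promoters of transcripts called higher, in 11.5% of those called lower, in 11.6% of those tested and in 18.1% of all 27457 promoters. Of 7 replication, mitotic or cyclin-pathway transcripts called higher with a matched promoter, 4 held it. The share among transcripts of these lists that were not called was not taken. Of the 4, the calls over Nuf2 and Mki67 were lost with libraries left out, as given below. CCAAT was present in 36.4%, 26.5%, 34.6% and 37.7% of the same sets, and TATAAA in 9.09%, 3.54%, 5.54% and 14.3%. A match is a description of letters and not of a binding site.

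The 3038 transcripts were longer than the genes they covered. The listed length, the summed exons, had a median of 4632 bases for the transcripts and of 2498 bases for the covered genes, and it was greater for the transcript at 2872 loci. The whole gene lay inside the transcript in 2247 cases (74.0%). At the 5′ end, 1728 transcripts reached beyond the annotated gene by a median of 1562 bases, 776 shared its end and 534 started inside it. At the 3′ end, 1892 reached beyond it by a median of 1912 bases, 758 shared its end and 388 stopped inside it. Both ends were exceeded by 1132 transcripts. A protein domain was listed for 2562 of them (84.3%).

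At these loci, which were chosen by a minimum count of the transcript, most of the counts were assigned to the unannotated transcript. The rule set no minimum for the covered gene, and covering transcripts below the minimum were left out. The shares and counts of loci below therefore depend in part on this rule and do not describe all covered genes. The covered gene had 0 counts in every library at 1660 loci (54.7%) and fewer than 10 in each library at 2455 (80.9%). Of 16865 protein-coding genes under no such transcript of any count, 4378 (26.0%) had 0 counts in every library. No minimum count was set at those genes, so unexpressed genes are among them. That share is therefore not a baseline for the 54.7%. The transcript held more counts than its gene at 2876 loci and fewer at 162, and its share of the locus had a median of 100% and a lowest value of 0.189%. At 2125 loci that share was at least 99%. The 3 genes covered more than once were Zfp958, LOC690700 and AABR07030977.1, with 7 transcripts between them.

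**Figure D1:**
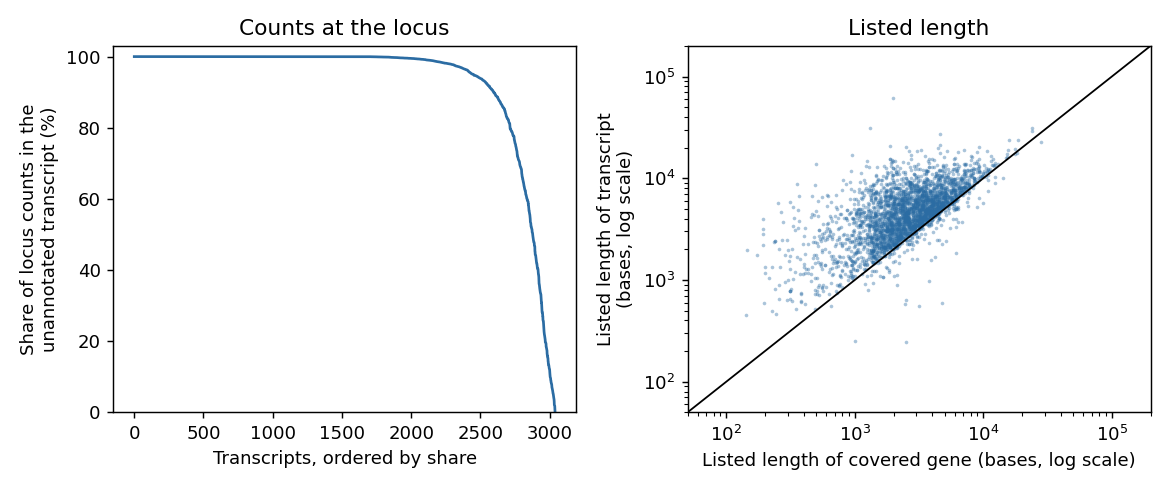
Left, the share of locus counts (transcript plus covered gene, summed over 6 libraries, in percent) held by each of the 3038 unannotated transcripts, ordered from high to low. Right, the listed length of each transcript against that of its covered gene in bases, both on log scales, with the line of equal length; 2872 transcripts lie above the line.

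Library totals ranged from 10325074 to 11921772 counts in the si-NC group and from 10703229 to 11723974 in the si-DYRK1A group. The transcripts described here held between 10.3% and 10.5% of each library and between 59.5% and 59.8% of the counts of unannotated transcripts. Their total counts over 6 libraries ran from 60 to 121571 with a median of 745.5. Just inside the minimum, the transcripts over Zfp592, RGD1561149 and Gmeb1 had 60 counts each, and just outside it those over Matn3, Rps25 and Rbm6 had 59. Pearson correlations of the transcripts' levels ran from 0.984 to 0.987 between libraries of a group and from 0.978 to 0.982 between groups, over libraries that share these features and this depth. Cardiomyocyte markers summed to between 23001 and 23830 CPM (counts scaled to library size after TMM normalisation, in the usual CPM unit) in si-NC and to between 26266 and 27264 CPM in si-DYRK1A over all features, while Myh6, Myh7 and Tnni3 were listed at 0 counts and no feature was named Ttn. Fibroblast markers summed to between 22063 and 26805 CPM in si-NC and to between 20888 and 21610 CPM in si-DYRK1A.

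The transcript over Dyrk1a, the targeted gene, did not fall in the libraries labelled si-DYRK1A. It spanned chr11:34840290-34959417 on the plus strand and held 99.9% of the counts of its locus. Its level was 74.5, 77.7 and 80.9 CPM in the si-NC libraries and 85.4, 80.1 and 81.7 CPM in the si-DYRK1A libraries. The groups overlapped, with the highest value in si-DYRK1A replicate 1 and the lowest in si-NC replicate 1. The log2 fold change of si-DYRK1A over si-NC was 0.08 ± 0.0575 (standard error), with an adjusted p of 0.374 in the edgeR quasi-likelihood test. These counts do not show less Dyrk1a RNA. The paper reports, by immunoblotting, knockdown of the targeted protein in neonatal cardiomyocytes given siRNA against it. Counts of RNA do not measure protein, so they do not decide whether the protein was lower in the cells sequenced. Group names below are those of the labels. For Kat6a, a histone acetyltransferase, the transcript gave a log2 fold change of 0.10 (adjusted p = 0.618), and no such transcript covered Wdr82.

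Of the 3019 transcripts with enough counts for a test, 352 (11.7%) were called at an adjusted p below 0.05, against 15.2% of all 15513 features tested. They comprised 205 higher in si-DYRK1A (6.79%, against 8.03% of all features) and 147 lower (4.87%, against 7.19%). The share was 17.3% among annotated features and 11.8% among the other unannotated transcripts. The share differed with depth: 26 of 881 transcripts with fewer than 300 counts in total were called (2.95%), and 297 of 1669 with at least 600 counts (17.8%). Without TMM normalisation, with library totals alone, 182 were higher and 189 lower. Leaving out si-DYRK1A replicate 2 gave 90 lower and leaving out si-DYRK1A replicate 3 also gave 90 lower, and 172 of the 352 calls were made in all 6 fits with 1 library left out. DESeq2 called 220 of the transcripts, against 11.3% of all features to which it gave an adjusted p, and 218 of them were among the 352. The groups did not overlap for 824 transcripts (27.3%), against 31.5% of all features tested.

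Most of the called changes were small. The median size of a called log2 fold change was 0.37, and 16 called transcripts changed at least 2-fold, 12 of them upward and 4 downward. Over all 3019 transcripts the median log2 fold change was 0.02, and over all features it was 0.00.

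**Figure D2:**
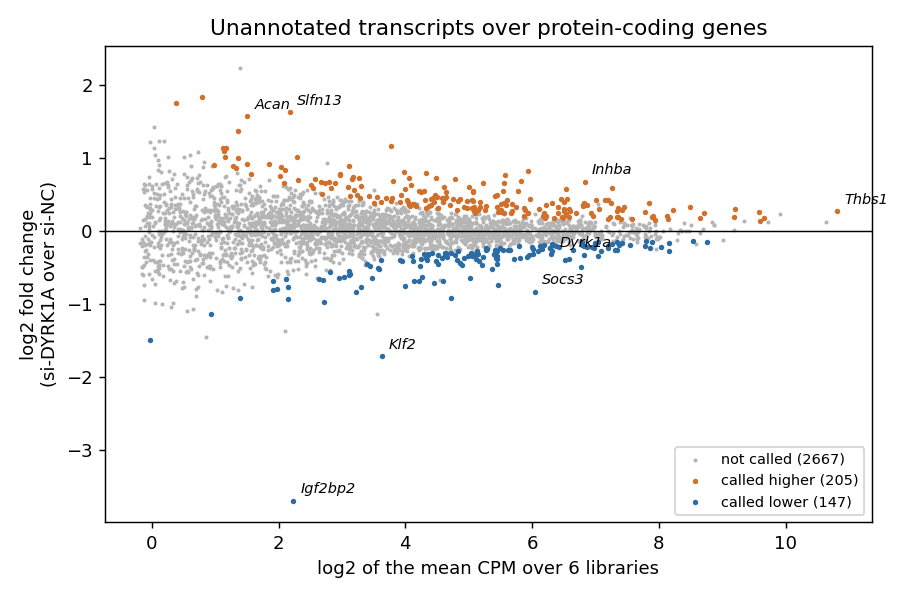
Log2 fold change of si-DYRK1A over si-NC against the log2 of the mean CPM over 6 libraries, for 3019 unannotated transcripts over protein-coding genes. Orange points are the 205 called higher and blue points the 147 called lower; the transcripts over Klf2 and Igf2bp2 lie lowest among the named points, and that over Dyrk1a lies among the grey points not called.

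Transcripts over 4 ligand genes of the TGF-beta family were called higher in si-DYRK1A. These ligands are secreted dimers that signal through paired serine/threonine kinase receptors to SMAD proteins. Of 20 transcripts tested over genes of the TGF-beta and BMP pathway, 5 were called higher (Inhba, Tgfb3, Bmp2, Id4 and Tgfb2) and 2 lower (Acvrl1 and Smad5), with a median log2 fold change of 0.09. Over all features, 8.03% were called higher and 7.19% lower. The transcript over Inhba, which encodes the beta A subunit of activins and inhibins, spanned 20088 bases of chromosome 17 on the minus strand. It reached 2453 bases beyond the 5′ end of the gene (chr17:51898217-51912496) and 3355 bases beyond its 3′ end, and the gene itself held 3 counts. Its level was 84.0, 86.7 and 91.6 CPM in si-NC and 141, 138 and 141 CPM in si-DYRK1A. All 3 si-DYRK1A libraries were above every si-NC library. The rise was 0.68 ± 0.0511 on the log2 scale, or 1.60-fold (adjusted p = 7.48e-09). The promoter window of Inhba is printed above.

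Tgfb3 and Bmp2 encode further ligands of this family. The Tgfb3 transcript was at 122, 115 and 126 CPM in si-NC and at 174, 152 and 161 CPM in si-DYRK1A (log2 fold change 0.42 ± 0.0553, adjusted p = 1.36e-05). The Bmp2 transcript was at 12.1, 14.0 and 14.1 CPM against 20.5, 21.3 and 20.5 CPM (0.63 ± 0.107, adjusted p = 2.67e-04). For both, the groups were apart. The Tgfb2 transcript, named after its values were seen, was at 51.7, 36.9 and 42.4 CPM against 66.0, 72.7 and 70.7 CPM, a rise of 0.68 ± 0.102 (adjusted p = 7.03e-04). The annotated Tgfb2 gene held 19527 counts against 3821 of the transcript, so this rise is that of the smaller part of the locus. Id4 encodes a helix-loop-helix inhibitor that BMP signalling induces, and its transcript went from 22.0, 19.8 and 19.7 CPM to 29.0, 27.9 and 32.3 CPM (0.54 ± 0.0935, adjusted p = 3.29e-04).

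The transcript over Acvrl1, a type I receptor of the BMP branch known best from endothelial cells, was lower. It was at 9.21, 8.71 and 8.19 CPM in si-NC and at 3.25, 3.67 and 6.32 CPM in si-DYRK1A. The groups did not overlap, and si-DYRK1A replicate 3 lay nearest to the controls. The change was -0.97 ± 0.211 on the log2 scale (adjusted p = 0.00304). Smad5, a BMP-responsive SMAD, had a transcript at a log2 fold change of -0.18 ± 0.0598 (adjusted p = 0.0415), a call that was lost without si-NC2 (adjusted p = 0.112), si-NC3 (0.0924), si-DYRK1A1 (0.168), si-DYRK1A2 (0.0636) or si-DYRK1A3 (0.0978), where the number is that of the replicate left out.

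The transcript over Klf2 had the smallest p-value of those called lower. Klf2 encodes a zinc finger transcription factor that shear stress induces in endothelial cells. Its transcript, chr16:19222435-19225037 on the minus strand, began at the 5′ end of the gene and ran 652 bases beyond its 3′ end, and the gene had no counts. The level was 18.6, 18.4 and 19.8 CPM in si-NC and 5.19, 5.74 and 6.40 CPM in si-DYRK1A. Every si-DYRK1A library was below 7 CPM and every si-NC library above 18 CPM. The change was -1.71 ± 0.131 on the log2 scale, or 3.27-fold lower (adjusted p = 9.08e-09). Endothelial markers over all features summed to between 180 and 199 CPM in si-NC and to between 149 and 155 CPM in si-DYRK1A, with 3 of 8 tested called lower and none higher by edgeR, and Flt1 without counts and no feature named Pecam1. Their part in the lower levels of the Klf2 and Acvrl1 transcripts was not tested.

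Of 18 transcripts over MAPK pathway, immediate early and feedback genes, none was called higher and 3 lower (Klf2, Fos and Nf1), with a median of -0.04. Across all features, 8.03% were called higher and 7.19% lower. Fos, the immediate early gene that forms AP-1 with Jun, had a transcript at 23.7, 20.8 and 21.0 CPM in si-NC and at 15.2, 11.7 and 13.6 CPM in si-DYRK1A. No library of one group reached the other, and the change was -0.69 ± 0.114 (adjusted p = 1.96e-04). The transcript over Socs3, the feedback inhibitor of JAK and STAT signalling, was at 90.5, 86.0 and 77.3 CPM against 42.0, 49.8 and 51.0 CPM. This was a change of -0.83 ± 0.0774 (adjusted p = 3.79e-07) with no overlap. Atf5 encodes a leucine zipper factor of the integrated stress response, and its transcript went from 59.1, 46.6 and 60.7 CPM to 31.9, 35.2 and 32.4 CPM (-0.74 ± 0.0918, adjusted p = 1.47e-05). It was the only one of 6 transcripts tested over stress response genes to be called.

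Transcripts over interferon and nucleic acid sensing genes went both ways, with 2 of 10 called higher (Adar and Parp9) and Socs3 lower. In all features, 8.03% were called higher and 7.19% lower. Adar encodes an enzyme that edits adenosines in double-stranded RNA. Its transcript reached 16845 bases beyond the 5′ end of the annotated gene and was at 67.4, 74.2 and 65.6 CPM in si-NC and 90.6, 88.8 and 91.0 CPM in si-DYRK1A. The rise was 0.38 ± 0.0595 (adjusted p = 9.93e-05), and the groups were apart. Slfn13, a Schlafen family gene whose product cleaves tRNA, had a transcript at 2.01, 1.44 and 3.18 CPM against 6.68, 7.53 and 6.40 CPM (1.63 ± 0.243, adjusted p = 6.43e-05). The annotated Slfn13 gene also rose, by 0.66 (adjusted p = 0.0191), and held 386 counts against 306 of the transcript.

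**Figure D3:**
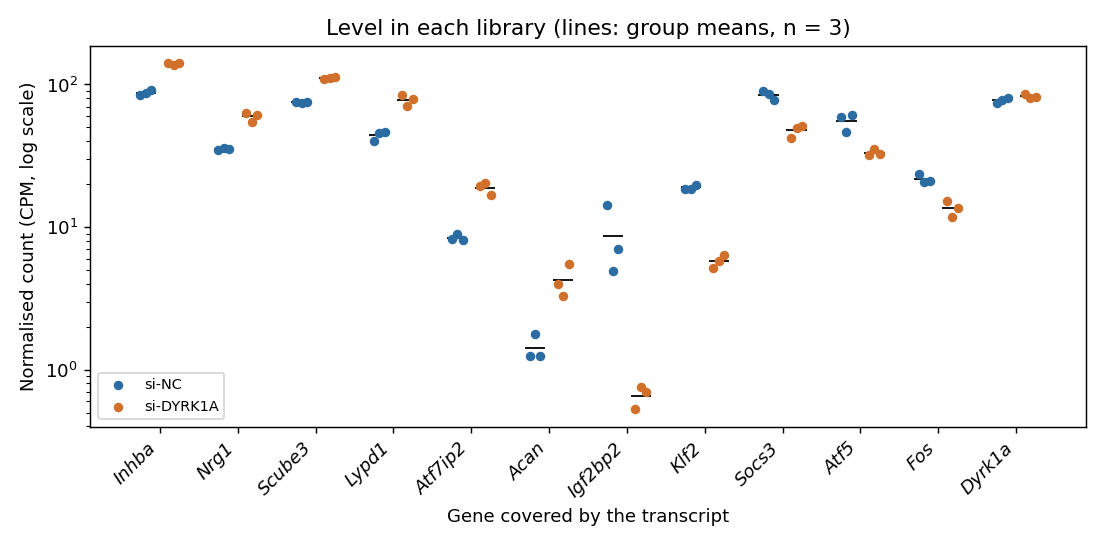
Normalised count (CPM, log scale) of 12 unannotated transcripts in each si-NC library (blue) and si-DYRK1A library (orange), with black lines at the group means (n = 3). The groups are apart for the first 11 transcripts, from Inhba to Fos, and overlap for Dyrk1a.

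Growth factor ligands and receptors had 5 of 20 transcripts called higher (Nrg1, Nrp2, Igf1, Irs2 and Igf1r) and 4 lower (Osmr, Ghr, Fgfr1 and Fgfr3). Shares of all features were 8.03% called higher and 7.19% called lower. Nrg1 encodes neuregulin, the ligand of ErbB receptors on cardiomyocytes. Its transcript started inside the gene, covered 80.4% of it and ran 7576 bases beyond its 3′ end. It was at 34.5, 35.9 and 35.0 CPM in si-NC and at 63.2, 54.6 and 61.2 CPM in si-DYRK1A, all of them higher. The rise was 0.76 ± 0.0743 on the log2 scale (adjusted p = 2.90e-07).

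Nrp2 encodes neuropilin, a co-receptor for semaphorins and VEGF. The transcript over it was at 128, 130 and 119 CPM against 163, 165 and 177 CPM (0.42 ± 0.0512, adjusted p = 5.11e-06). For Igf1, a ligand of the IGF1 receptor, the transcript was at 270, 255 and 286 CPM against 354, 316 and 322 CPM (0.29 ± 0.0516, adjusted p = 4.87e-04). Both sets of si-DYRK1A libraries lay above the controls. Irs2, an adaptor of insulin and IGF receptors, had a transcript at 23.8, 31.4 and 26.8 CPM against 40.7, 36.4 and 42.8 CPM (0.55 ± 0.0971, adjusted p = 5.01e-04), and the annotated gene, with 5718 counts against 2282, rose by 0.28 (adjusted p = 0.00132).

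In the other direction, the transcript over Osmr, a receptor subunit for oncostatin M, was at 132, 122 and 125 CPM in si-NC and at 101, 99.9 and 99.6 CPM in si-DYRK1A. No overlap was seen and the change was -0.33 ± 0.0507 (adjusted p = 7.51e-05). The Ghr transcript, over the growth hormone receptor, changed by -0.33 ± 0.0820 (adjusted p = 0.00790), and without si-DYRK1A2 its adjusted p was 0.0519. Igf2bp2 encodes an RNA-binding protein that stabilises mRNAs including that of IGF2, and its transcript had the most negative log2 fold change of the called set. It was at 14.2, 4.91 and 7.02 CPM in si-NC and at 0.528, 0.753 and 0.692 CPM in si-DYRK1A, from 148, 58 and 84 counts against 6, 8 and 8 counts. The si-NC libraries were spread widely, and all were above the si-DYRK1A libraries. The change was -3.70 ± 0.507 (adjusted p = 0.00240).

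Extracellular matrix genes of the hand-written list had 8 of 26 transcripts called higher and none lower by edgeR (against 8.03% and 7.19% of all features), with a median log2 fold change of 0.12. Grouped instead by a listed collagen triple helix repeat, 2 of 15 tested transcripts were called higher and 1 lower, with a median of -0.13. Thbs1, a matricellular glycoprotein that activates latent TGF-beta, had the transcript with the most counts of all, 121571, and the gene below it had none. The transcript followed the gene from its 5′ end and ran 1793 bases beyond its 3′ end on chromosome 3. It was at 1568, 1681 and 1626 CPM in si-NC and at 1950, 1950 and 1991 CPM in si-DYRK1A. Without overlap between groups, the rise was 0.27 ± 0.0394 (adjusted p = 4.56e-05). Per length it had the highest mean as well, 282 ± 10.7 FPKM (SD, n = 3) in si-NC and 340 ± 3.93 FPKM in si-DYRK1A.

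Itga9 encodes an integrin alpha subunit, and its transcript was at 318, 321 and 320 CPM against 408, 391 and 407 CPM (0.33 ± 0.0416, adjusted p = 7.78e-06). The transcript over Lamc1, the laminin gamma 1 chain of basement membranes, was at 675, 728 and 691 CPM against 844, 812 and 843 CPM (0.26 ± 0.0419, adjusted p = 1.88e-04). In both, every si-DYRK1A library exceeded every si-NC library. Acan, the aggrecan core protein, had a low transcript at 1.25, 1.78 and 1.25 CPM against 3.96, 3.30 and 5.54 CPM (1.57 ± 0.283, adjusted p = 4.80e-04). Of 11 fibroblast marker features tested, 3 were called higher and none lower by edgeR, although their summed level was lower as given above, with Pdgfra at 0 counts and no feature named Col1a2; their part in the matrix levels was not tested. The remaining 4, over Col8a1, Adamts6, Col5a1 and Dcn, had log2 fold changes of 0.31, 0.29, 0.14 and 1.00. Of these, the Col8a1 call was made in all 6 fits with a library left out. The Adamts6 call was lost without si-NC1 (adjusted p = 0.0757) or si-DYRK1A2 (0.0863), and the Col5a1 call without si-NC1 (0.114), si-DYRK1A1 (0.0872) or si-DYRK1A3 (0.115). The Dcn call was lost without si-NC1 (0.141), si-NC2 (0.0528), si-DYRK1A2 (0.140) or si-DYRK1A3 (0.102).

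Scube3, a secreted EGF-domain protein, and Sfrp1, a secreted Wnt antagonist, also had higher transcripts. The Scube3 transcript was at 75.0, 74.2 and 75.4 CPM against 110, 112 and 113 CPM (0.57 ± 0.0515, adjusted p = 9.07e-08), with a standard deviation of 0.637 CPM in si-NC and 1.64 CPM in si-DYRK1A. The Sfrp1 transcript ran 73152 bases beyond the 3′ end of its gene and held 6.92% of the locus counts. It was at 29.5, 29.6 and 27.8 CPM against 38.5, 48.0 and 50.7 CPM (0.66 ± 0.0930, adjusted p = 4.58e-05), and the annotated Sfrp1 gene, with 33963 counts, rose by 0.60 (adjusted p = 2.98e-08). Of 29 transcripts over Wnt, Notch and Hippo genes, 2 were called higher (Sfrp1 and Wnt9a) and 1 lower (Heyl), with a median of -0.02. Shares of all features were 8.03% higher and 7.19% lower.

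Sarcomere, Z-disc and costamere genes had 5 of 21 transcripts called higher (Ldb3, Sgca, Pdlim5, Tnni1 and Cap2) and none lower. Among all features tested, 8.03% were called higher and 7.19% lower. Ldb3, also called cypher, is a PDZ and LIM protein that binds alpha-actinin in the Z-disc. Its transcript was at 79.5, 71.9 and 73.8 CPM in si-NC and at 98.0, 101 and 105 CPM in si-DYRK1A, with no overlap. The rise was 0.43 ± 0.0569 (adjusted p = 1.43e-05). Sgca, a sarcoglycan of the dystrophin complex, had a transcript at 17.6, 19.0 and 18.8 CPM against 25.5, 26.7 and 25.5 CPM (0.49 ± 0.0926, adjusted p = 8.02e-04).

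Pdlim5, a second PDZ and LIM protein of the Z-disc, had 54888 counts in its transcript and a log2 fold change of 0.17 ± 0.0420 (adjusted p = 0.00675), and without si-NC1 the adjusted p was 0.0695. Tnni1 encodes slow skeletal troponin I, the fetal cardiac form. Its transcript changed by 0.50 ± 0.144 (adjusted p = 0.0221) and held 9.94% of its locus, while the annotated gene rose by 0.36 (adjusted p = 3.27e-04). The Tnni1 transcript's call was lost without si-NC2 (0.0708), si-NC3 (0.0647), si-DYRK1A1 (0.0607), si-DYRK1A2 (0.0661) or si-DYRK1A3 (0.0587). Cap2, an actin-regulating cyclase-associated protein, had a transcript at a log2 fold change of 0.47, whose call was lost without si-NC1 (0.123), si-DYRK1A2 (0.0909) or si-DYRK1A3 (0.0803). The summed cardiomyocyte markers were also higher in all 3 si-DYRK1A libraries, and their part in these levels was not tested.

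Of the transcripts with the smallest p-values, that over Lypd1, a membrane-anchored modulator of acetylcholine receptors, was at 40.0, 45.8 and 46.5 CPM in si-NC and at 84.0, 70.8 and 79.7 CPM in si-DYRK1A, with no overlap (log2 fold change 0.82 ± 0.0756, adjusted p = 1.42e-07). The annotated Lypd1 gene rose as well, by 0.88 (adjusted p = 0.0204).

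A pair of transcripts with titin-type domains lay next to each other on the minus strand of chromosome 3 and were named after their values were seen. That over AABR07052585.2 (chr3:63565142-63605449) held 108048 counts, and that over AABR07052585.1 (chr3:63606878-63836017) held 65363 counts with a listed length of 61449 bases, the longest of all. The first was at 1638, 1593 and 1363 CPM in si-NC and at 1874, 1564 and 1551 CPM in si-DYRK1A, and the second at 1008, 856 and 806 CPM against 1263, 966 and 907 CPM. Both overlapped between groups. Their log2 fold changes were 0.12 ± 0.113 (adjusted p = 0.581) and 0.23 ± 0.174 (adjusted p = 0.487).

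Calcium handling and ion channel genes had 2 of 14 transcripts called higher (Cacna1c and Cacna1g) and 3 lower (Scn7a, Cacna2d1 and Calm3). Across all features, 8.03% were called higher and 7.19% lower. Cacna1c encodes the pore of the cardiac L-type calcium channel and Cacna2d1 its alpha2delta subunit. The Cacna1c transcript reached 439365 bases beyond the 5′ end of the gene and was at 64.4, 61.8 and 58.4 CPM in si-NC and at 82.1, 72.5 and 73.5 CPM in si-DYRK1A (0.31 ± 0.0658, adjusted p = 0.00250). The Cacna2d1 transcript was at 141, 148 and 157 CPM against 125, 123 and 122 CPM (-0.27 ± 0.0508, adjusted p = 7.50e-04). The pore's transcript was thus higher and the auxiliary subunit's lower, each with no overlap between groups. Scn7a, a sodium channel family member that senses sodium, had a transcript at 13.0, 11.4 and 11.6 CPM against 6.68, 5.56 and 7.88 CPM (-0.84 ± 0.156, adjusted p = 6.71e-04). Epicardial and Schwann cell markers over all features, of which 4 of 7 tested were called lower, summed to between 100 and 105 CPM in si-NC and to between 79.5 and 83.6 CPM in si-DYRK1A, with Upk1b at 0 counts, and their part in the Scn7a level was not tested. The Calm3 call, for a calmodulin gene (-0.16), was lost without si-DYRK1A2 (adjusted p = 0.0727) or si-DYRK1A3 (0.0776).

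Mitotic genes had 5 of 23 transcripts called higher (Anln, Mad2l1, Topbp1, Nuf2 and Mki67) and 1 lower (Cit), against 8.03% and 7.19% of all features, with a median log2 fold change of 0.20, and replication genes had 2 of 8 called higher (Dut and Topbp1), with a median of 0.28. Mki67, like Cap2, Igf1r, Col8a1, Adamts6 and Col5a1 above, falls outside the rule for named transcripts and was named after its values were seen. Anln encodes anillin, a scaffold of the cytokinetic ring. Its transcript was at 53.3, 49.8 and 55.4 CPM in si-NC and at 72.6, 70.6 and 71.9 CPM in si-DYRK1A, all of the latter higher. The rise was 0.44 ± 0.0640 (adjusted p = 4.75e-05). Mad2l1, a spindle checkpoint protein, had a transcript at 29.7, 33.8 and 30.0 CPM against 44.1, 37.0 and 41.9 CPM (0.40 ± 0.0858, adjusted p = 0.00269). Dut, the enzyme that keeps uracil out of DNA, had one at 16.3, 15.7 and 16.0 CPM against 23.7, 21.3 and 25.2 CPM (0.55 ± 0.101, adjusted p = 5.97e-04). The groups were apart for these 3 transcripts and for Topbp1, an activator of the ATR checkpoint kinase (0.33 ± 0.0792, adjusted p = 0.00638).

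The remaining mitotic calls were each lost with at least 1 library left out. Nuf2, a kinetochore subunit, had a transcript at 3.36, 4.99 and 5.10 CPM against 8.79, 5.37 and 7.96 CPM (0.71 ± 0.212, adjusted p = 0.0256), which was lost without si-NC1 (0.127), si-DYRK1A1 (0.143) or si-DYRK1A3 (0.105). Mki67, the Ki-67 protein of dividing cells, had one at 10.7, 9.13 and 9.78 CPM against 12.2, 12.6 and 13.8 CPM, with a log2 fold change of 0.39 ± 0.131 (adjusted p = 0.0497). The groups did not overlap, and the call was lost in each of the 6 fits with a library left out, at adjusted p-values of 0.0524, 0.152 and 0.109 without si-NC1 to si-NC3 and 0.0694, 0.107 and 0.197 without si-DYRK1A1 to si-DYRK1A3. Cit, the citron kinase of cytokinesis, went from 4.41, 4.65 and 5.94 CPM to 2.73, 3.20 and 2.77 CPM (-0.79 ± 0.219, adjusted p = 0.0167), lost without si-NC3 (0.0870), si-DYRK1A1 (0.0625) or si-DYRK1A3 (0.0645). Of 18 transcripts over cyclins, their kinases and inhibitors and E2F, Rb and DREAM genes, 1 was called, over the CDK inhibitor Cdkn1b (log2 fold change 0.34, adjusted p = 0.0289). That call too was lost with any library left out, at 0.0724, 0.0862 and 0.0530 without si-NC1 to si-NC3 and 0.0709, 0.0738 and 0.113 without si-DYRK1A1 to si-DYRK1A3.

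Among 7 transcripts over DYRK, CLK and HIPK kinases, 1 was called. Clk1 encodes a kinase related to DYRK1A that phosphorylates splicing factors, and its transcript had both ends of the annotated gene. It was at 34.3, 36.1 and 42.6 CPM in si-NC and at 52.2, 58.0 and 56.1 CPM in si-DYRK1A. All si-DYRK1A libraries were higher, and the rise was 0.55 ± 0.0818 (adjusted p = 5.49e-05). Of 33 transcripts over splicing factors and RNA-binding proteins, 4 were called higher (Celf1, Msi2, Hnrnpa2b1 and Rbm24) and 2 lower (Igf2bp2 and Rbm39). Among all features, 8.03% were called higher and 7.19% lower. The Celf1 and Msi2 transcripts were called in all 6 fits with a library left out. They encode regulators of splicing and translation, with a log2 fold change of 0.20 each (adjusted p = 0.00369 and 0.00632).

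Histone acetyltransferase and H3K4 methyltransferase genes had none of 12 transcripts called higher by edgeR and 3 lower, against 8.03% and 7.19% of all features. Kat2b, the acetyltransferase PCAF, had a transcript at 38.7, 41.8 and 37.9 CPM in si-NC and at 30.3, 31.0 and 33.6 CPM in si-DYRK1A. The groups were apart, and the change was -0.32 ± 0.0801 (adjusted p = 0.00812). Kmt2c, an H3K4 methyltransferase of enhancers, changed by -0.22 (adjusted p = 0.0174, and 0.0905 without si-DYRK1A2). Kat6b, the paralogue of Kat6a, had a log2 fold change of -0.33 (adjusted p = 0.0409), lost without si-NC2 (0.101), si-NC3 (0.138), si-DYRK1A1 (0.202) or si-DYRK1A2 (0.0877). Of 26 transcripts over chromatin remodellers, deacetylases and Polycomb genes, 1 was called, that over the methylcytosine dioxygenase Tet3 (-0.22 ± 0.0510, adjusted p = 0.00388). The transcript over ENSRNOG00000059093, a gene without a symbol, was listed with a core histone domain. It was at 37.8, 33.1 and 32.8 CPM against 21.5, 15.5 and 17.5 CPM (-0.93 ± 0.108, adjusted p = 4.69e-06). Histone genes have near-identical copies, so its counts may include reads of others.

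Transcripts over the remaining lists were mostly not called (of all features, 8.03% were called higher and 7.19% lower). Of 19 over metabolic genes, 1 was called, over the glycolytic enzyme Pkm, at 231, 222 and 254 CPM in si-NC and 199, 211 and 204 CPM in si-DYRK1A (-0.21 ± 0.0511, adjusted p = 0.00769). Of 8 over aryl hydrocarbon receptor, Nrf2 and p53 pathway genes, Tp53inp1 and Zmat3 were called higher and Nfe2l1 lower. Tp53inp1, a p53 target, was at 155, 154 and 157 CPM against 203, 193 and 189 CPM (0.33 ± 0.0465, adjusted p = 3.65e-05), and Nfe2l1, a transcription factor of proteasome genes, at 282, 285 and 279 CPM against 245, 242 and 238 CPM (-0.22 ± 0.0424, adjusted p = 8.41e-04). The groups were apart for Pkm, Tp53inp1 and Nfe2l1. Of 16 over cardiac transcription factors, 2 were called higher (Hopx and Mef2c), and of 7 over circadian clock genes, 1 was called lower (Per3). Of these, Mef2c was lost with any library left out (adjusted p from 0.0843 without si-NC3 to 0.127 without si-DYRK1A2), Zmat3 without si-NC1 (0.0960), si-NC3 (0.0560), si-DYRK1A1 (0.0559) or si-DYRK1A3 (0.0647), Hopx without si-NC2 (0.0639) or si-DYRK1A3 (0.115), and Per3 without si-NC1 (0.0757), si-NC2 (0.0721), si-DYRK1A2 (0.0602) or si-DYRK1A3 (0.158).

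Transcripts with large changes outside these lists included those over Atf7ip2, Plcb4 and Adgra1. Atf7ip2 encodes a partner of the histone methyltransferase SETDB1, and its transcript started 7829 bases before the gene and stopped inside it. It was at 8.25, 8.88 and 8.11 CPM in si-NC and at 19.5, 20.4 and 16.8 CPM in si-DYRK1A, a rise of 1.17 ± 0.123 (adjusted p = 7.95e-07). The Plcb4 transcript, over a phospholipase C, was at 2.97, 3.04 and 3.68 CPM against 5.28, 7.06 and 7.27 CPM (1.01 ± 0.206, adjusted p = 0.00161), and that over the adhesion receptor Adgra1 was at 1.25, 1.44 and 1.59 CPM against 4.92, 3.58 and 2.60 CPM (1.36 ± 0.296, adjusted p = 0.00269). All 3 were apart between the groups. Rgs5, a pericyte marker that dampens G protein signalling, had a transcript at 47.9, 40.6 and 45.7 CPM against 64.3, 68.4 and 64.1 CPM (0.55 ± 0.0722, adjusted p = 1.34e-05). Smooth muscle and pericyte markers over all features summed to between 765 and 792 CPM in si-NC and to between 807 and 830 CPM in si-DYRK1A, with Acta2, Myh11 and Smtn at 0 counts. Rgs5 itself is in this list, and the part of the other markers in its level was not tested. Slc39a1, a zinc importer, had a transcript at 4.41, 6.17 and 6.94 CPM against 3.34, 2.73 and 3.12 CPM (-0.93 ± 0.219, adjusted p = 0.00511).

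**Figure D4:**
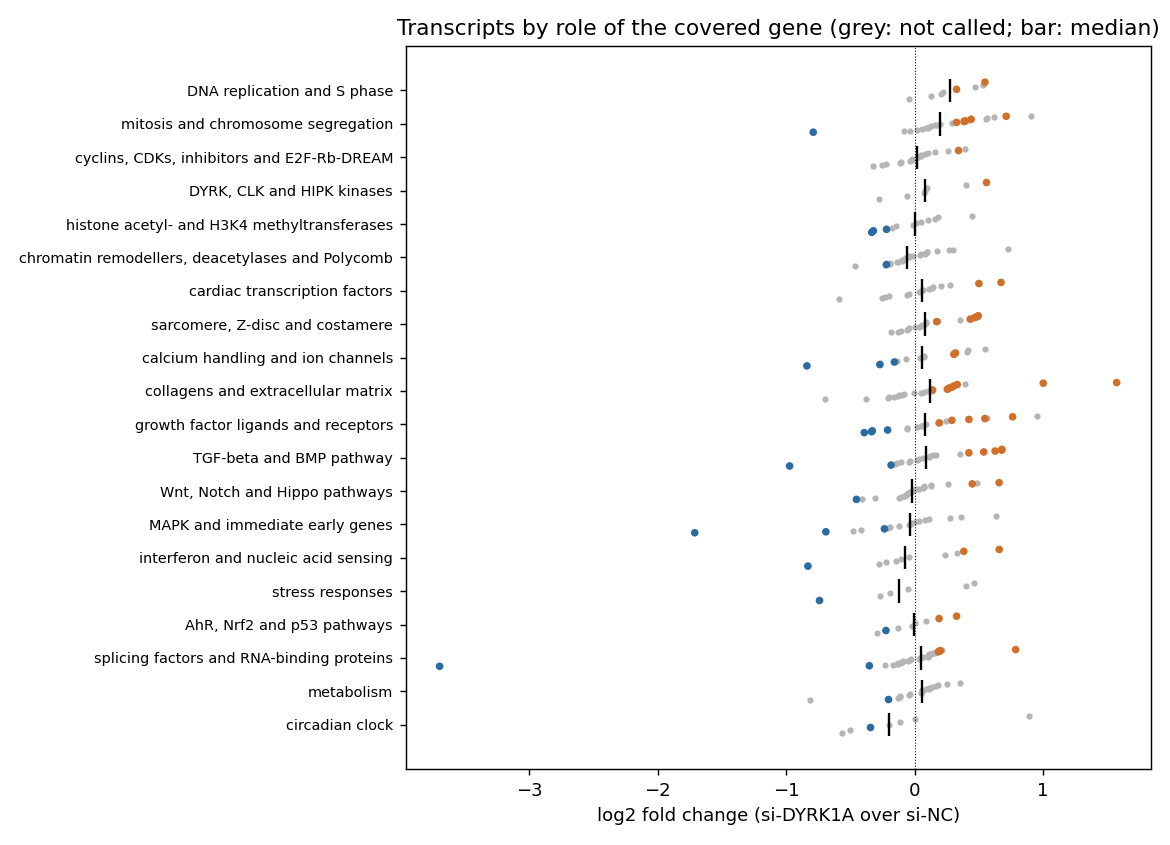
Log2 fold change of si-DYRK1A over si-NC for each tested transcript, in rows by the role of the covered gene; orange points were called higher, blue points called lower and grey points not called, and black bars are medians. The extracellular matrix row holds 8 orange and no blue points, the MAPK row 3 blue and no orange points, and the point furthest to the left is Igf2bp2 at -3.70.

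The transcripts with the highest levels per length were mostly not called. After Thbs1, those over Fstl1, Prkar1a, Basp1 and AABR07006258.2 had the highest mean FPKM. Fstl1, a secreted glycoprotein that fibroblasts and epicardium release, was at 243 ± 14.7 FPKM (SD, n = 3) in si-NC and 263 ± 2.40 FPKM in si-DYRK1A (log2 fold change 0.12, adjusted p = 0.0715). For Prkar1a, the regulatory subunit of protein kinase A, the values were 132 ± 3.31 and 139 ± 2.71 FPKM (adjusted p = 0.236), for Basp1, a membrane-bound signalling protein, 140 ± 7.92 and 132 ± 3.95 FPKM (adjusted p = 0.258), and for AABR07006258.2 131 ± 24.8 and 144 ± 4.31 FPKM (adjusted p = 0.593).

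At 475 loci both the transcript and the annotated gene had enough counts for a test. The transcript was called at 71 of them (14.9%, near the 15.2% of all features tested) and both features at 17. These 17 changed in the same direction in each case, 54 were called in the transcript alone and 19 in the gene alone. A test of the difference between both fold changes, with the libraries as a term, called 0 of 475 loci by edgeR (42 at an unadjusted p below 0.05), and the smallest adjusted p was 0.139. A call in one feature and not in the other therefore does not show that they differed. The loci with the smallest p-values were Tns2, Heyl, Myo1c, Gab2 and Sulf1. At Heyl, a target of Notch signalling, the transcript was at 27.3, 28.5 and 23.2 CPM against 20.1, 18.5 and 19.1 CPM (-0.45 ± 0.0993, adjusted p = 0.00294), while the gene held 8, 24 and 8 counts against 22, 24 and 18 counts (0.71, adjusted p = 0.264). At Tns2, a focal adhesion protein, the transcript changed by -0.15 and the gene, with 12, 24 and 16 counts against 3, 6 and 6 counts, by -1.73 (adjusted p = 0.0134). The difference was 1.58 ± 0.470 at Tns2 and -1.17 ± 0.348 at Heyl on the log2 scale, both with an adjusted p of 0.139. Leaving out si-DYRK1A replicate 1 called Myo1c (-0.68, adjusted p = 0.0222), and leaving out si-DYRK1A replicate 2 called LOC108348064 (-3.08, adjusted p = 3.54e-07).

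**Figure D5:**
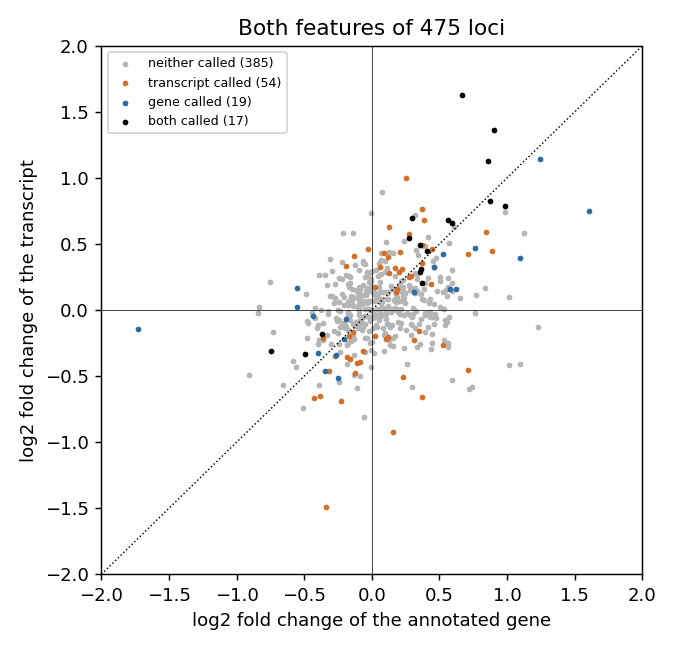
Log2 fold change of the unannotated transcript against that of the annotated gene it covers at 475 loci where both were tested, with the line of equality dotted. Black points mark 17 loci with both called, orange 54 with the transcript alone, blue 19 with the gene alone and grey the others; the black points all have fold changes of the same sign in both features.

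Some transcripts that the text above names as called without giving their levels were called in fewer than 6 of the 6 fits with 1 library left out. Igf1r was called in 4 of them, Fgfr1 in 3, Fgfr3, Hnrnpa2b1 and Rbm39 in 2, and Parp9, Nf1, Cacna1g, Wnt9a and Rbm24 in 1. The highest adjusted p among the lost calls of these was 0.0611 for Igf1r (without si-NC1), 0.0940 for Fgfr1 (without si-DYRK1A2), 0.133 for Fgfr3 (without si-NC3), 0.103 for Hnrnpa2b1 (without si-DYRK1A1), 0.244 for Rbm39 (without si-NC1), 0.148 for Parp9 (without si-DYRK1A1), 0.196 for Nf1 (without si-DYRK1A3), 0.141 for Cacna1g (without si-NC3), 0.236 for Wnt9a (without si-DYRK1A2) and 0.217 for Rbm24 (without si-DYRK1A1).

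At the 1651 tested loci whose gene had 0 counts, the transcript was the only count at the locus, and 182 (11.0%) were called, against 15.2% of all features tested. Adding the counts of transcript and gene called 363 loci, 212 higher and 151 lower. An annotated gene on the opposite strand overlapped 610 of the 3038 transcripts, among them those over Lypd1, Atf5, Slfn13, Sgca, Cacna1c and Msi2. Whether counting used strand is not given in the sources used here, so reads of both strands cannot be told apart at these loci.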

How the data were processed

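RNA-seq was performed on 6 libraries of rat neonatal cardiomyocytes, 3 per group, grouped by the sample labels. According to the methods of the study, reads were mapped to Rnor_6.0 with HISAT2, and positions are those of that build as the authors listed them. The submitters' processing notes name Bowtie 0.12.2 and a mouse build, mm8, with no role given, and the labels and the methods name different library kits. Raw counts per feature were deposited by the authors, with the counting tool and strand setting not given in the sources used here. FPKM, deposited by the authors in a separate table, is the count per listed length times 1 constant for each library. Both tables hold annotated genes and assembled transcripts. Sampling error of counts limits precision at low totals.

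Under R 4.3.3, edgeR 4.0.16 fitted the counts of all features by quasi-likelihood (TMM scaling, robust dispersion). The filterByExpr filter, set to a minimum count of 10 in 3 or more libraries and a minimum total of 15, left 15513 of 43035 features. Two-sided p-values were corrected by Benjamini-Hochberg over all of these, and calls were made below 0.05. The difference between a transcript and its gene was fitted as an interaction over both features of a locus, with library and feature as terms. An exact permutation test of 3 against 3 libraries cannot give a p below 0.1 and is not quoted. The fits were tested on simulated data. Alternatives used DESeq2 1.42.0, limma 3.58.1, other scalings and filters, FPKM with pseudocounts of 1 and 0.1, a replicate block, libraries left out and stricter rules for inclusion. Gene lists were written by hand from general knowledge. The members and lists were chosen with earlier results of these data known. Transcripts were named if they covered Dyrk1a, Kat6a or Wdr82, were among the 5 with the smallest p or the highest FPKM, were among the 10 largest called changes per direction (mean log2 CPM of 1 or more, groups apart), were among the first 4 calls per direction of a list, lay nearest to the count minimum, or had the 5 smallest p-values for a difference from their gene. Not all of these are described, 1 result is not reported here, and named transcripts outside the rule are marked. Symbols were taken from the deposited table. Promoter windows came from RefSeq (GRCr8), and Rnor_6.0 sequence was not used here.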

Additional observations from a re-analysis of the deposited data

How the results depend on the processing

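The main test called 352 transcripts, 205 higher and 147 lower. Counts differed from these by more than 1.5 times under 5 alternatives that kept all libraries, and the count lower did so when replicate 2 or replicate 3 of si-DYRK1A was left out (90 each). DESeq2 called 220 (132 higher, 88 lower), limma on log2(FPKM + 1) called 128 (83, 45), on log2(FPKM + 0.1) 130 (84, 46) and on log2(FPKM + 1) without the filter on low values 56 (37, 19), and a threshold of 0.01 left 191 (121, 70). Leaving out 1 library gave from 237 to 325 calls, from 146 to 185 higher and from 90 to 140 lower. Other scalings, limma-voom, other filters, sums with the covered gene and stricter cover gave totals from 260 to 383. The share higher was not stable in its order: library totals alone gave 182 higher and 189 lower. Of loci whose transcript and gene differed, 0 were called in the main fit, 1 without a filter on low counts (LOC108348064), and 0 to 1 with a library left out. Of 1504 values of named transcripts under an alternative, 1217 kept their direction and their side of the threshold, 284 lost the call, 2 gained it and 1 reversed. The reversed value was that over AABR07006258.2, at -0.0158 without si-NC replicate 2 and up to 0.232 without other libraries, and it was never called. The causes were not tested.

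No pairing by replicate number was seen: deviations of same-numbered libraries correlated at 0.0578, -0.0261 and -0.00409, and those of other numbers at -0.0553 to 0.0595. These values do not settle whether libraries were prepared in pairs. With the replicate block, 345 transcripts were called, 200 higher and 145 lower, of which 331 were among the 352. Precision is limited by depth, since 881 tested transcripts held fewer than 300 counts.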

Other observations

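Protein domains listed for the transcripts gave groups that the role lists did not use, and these groups were formed after the values were seen. Many domains were looked at, and the LIM domain is given first because it had the most calls higher. Groups of similar size had fewer: 1 higher and 3 lower of 21 tested with an SH2 domain, and 2 higher and 1 lower of 21 with a RhoGAP domain. Of 20 tested transcripts listed with a LIM domain, a zinc-binding fold common in cytoskeletal adaptors, 8 were called higher and 1 lower, with a median log2 fold change of 0.16, against 8.03% and 7.19% of all features. They included Lmo7 (0.36), Prickle1 (0.68) and, lower, Pdlim2 (-0.52), beside Ldb3 and Pdlim5, and LIM proteins are known from focal adhesions and the Z-disc. The calls over Ablim1, Limch1, Fhl2 and Zyx were made in 3, 2, 2 and 1 of the 6 fits with a library left out. For the calponin homology domain, an actin-binding fold, 4 of 16 were called higher and none lower by edgeR, including Mical2 (0.30) and Macf1 (0.26), with a median of 0.23. Of 46 listed with an RNA recognition motif, 7 were called higher and 1 lower, with a median of 0.08.

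Of 28 transcripts listed with the protein tyrosine kinase domain, 2 were called higher and 5 lower (median -0.07). Of 83 listed with the general protein kinase domain, 2 were called higher and 4 lower (median 0.01). Over all features, 8.03% were called higher and 7.19% lower. None of 51 transcripts listed with a KRAB box, the domain of a family of transcriptional repressors, was called by edgeR, against 15.2% of all features tested. Their median was 0.05. The counts of these groups were not tested against other features. The share called differed with depth, and the depth of these groups was not compared.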
